A study of Sus scrofa with 19 samples.

Results

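Cyclic nucleotide phosphodiesterases are the enzymes that hydrolyse cAMP and cGMP, and their 10 genes PDE1A, PDE1C, PDE2A, PDE3A, PDE3B, PDE4B, PDE4D, PDE5A, PDE8B and PDE9A were followed in myocardium of 19 pigs. The members were found by gene symbol in the authors' expression table and were matched by Ensembl identifier to the raw count files. All 10 were found among the 25879 genes of the count files, and all 10 passed the filter on low counts that kept 13552 genes. In the heart, cAMP made after beta-adrenergic stimulation raises contraction and rate through protein kinase A, while cGMP made in response to nitric oxide or natriuretic peptides acts through protein kinase G. Phosphodiesterases end both signals and hold them in small compartments of the cardiomyocyte. PDE3 and PDE4 carry out much of the cAMP hydrolysis in heart muscle, PDE5 and PDE9 are selective for cGMP, and PDE1 and PDE2 degrade both.

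One library was made per female large white pig (Sus scrofa), without pooling. The groups were 5 pigs given free doxorubicin, an anthracycline with cardiotoxic action (DOX), and 5 given Myocet, its liposome-encapsulated citrate complex (MYO), each at 60 mg/m2 in 3 cycles and sampled at the anterior wall at 3 months. A further 3 pigs had a balloon occlusion of the left anterior descending artery for 90 min followed by reperfusion and were sampled in the non-infarcted posterior wall at 6 months (RemoLV). Another 3 had a stent of fixed width in the thoracic aorta, placed while they were juvenile, so that an isthmus stenosis developed with growth (Hyper), and 3 were controls (Control), with anterior wall taken in both groups at 6 months. The sample descriptions call the controls sham-operated and the methods call them untreated. Follow-up differed between the drug groups and Control, and the sampled wall differed between RemoLV and the others, so that neither can be told apart from the group. The data of the anthracycline-treated pigs were taken over from an earlier study, and this too cannot be told apart from the group.

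The deposited counts on genes amounted to between 9527710 and 20370209 per library. Expression is given as CPM, the read count scaled by library size after TMM normalisation. The names of the deposits conflict. For 8 of the 19 libraries the count file carries another group's name than the matching column of the authors' table. The 3 libraries labelled RemoLV on the files are named Control there, the 3 labelled Control are named RemoLV, and DOX 5 and MYO 1 are exchanged. The count files and labels used here do not decide between them. The names on the files (file labels) are used below unless table names are stated, and the comparison of DOX and MYO together with Hyper holds the same libraries under both.

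Some libraries also went against their labels or stood apart. MYL2, the ventricular regulatory light chain, was at 58.0 ± 50.8 CPM (SD, n = 3) in the libraries labelled RemoLV and at group means of 10431 to 15896 CPM elsewhere, and MYL4, the atrial light chain, was at 7169 ± 1062 CPM against group means of 1.02 to 9.87 CPM. The summed level of the atrial marker list, with 10 of 12 genes found, ranged from 10417 to 13973 CPM in the libraries labelled RemoLV, from 885 to 2520 CPM in DOX and MYO, 338 to 1396 CPM in Hyper and 185 to 257 CPM in Control. The fibroblast list, found with 9 of 9 genes, summed to between 11217 and 12835 CPM in RemoLV, to between 4816 and 7410 CPM in DOX and MYO, and to between 1694 and 4044 CPM in Hyper and Control. The part of these markers in the differences of DOX and MYO from Control was not tested. The labelled ventricular tissue was thus not borne out by its defining marker in these 3 libraries. DDX3Y, a gene of the Y chromosome, had means of 122 CPM in DOX and 101 CPM in MYO and between 0 and 2 counts in each of the other 9 libraries, although all pigs are labelled female. Control 2 differed from Control 1 and Control 3 in several members, and results that rest on it are given with and without it.

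**Figure D1:**
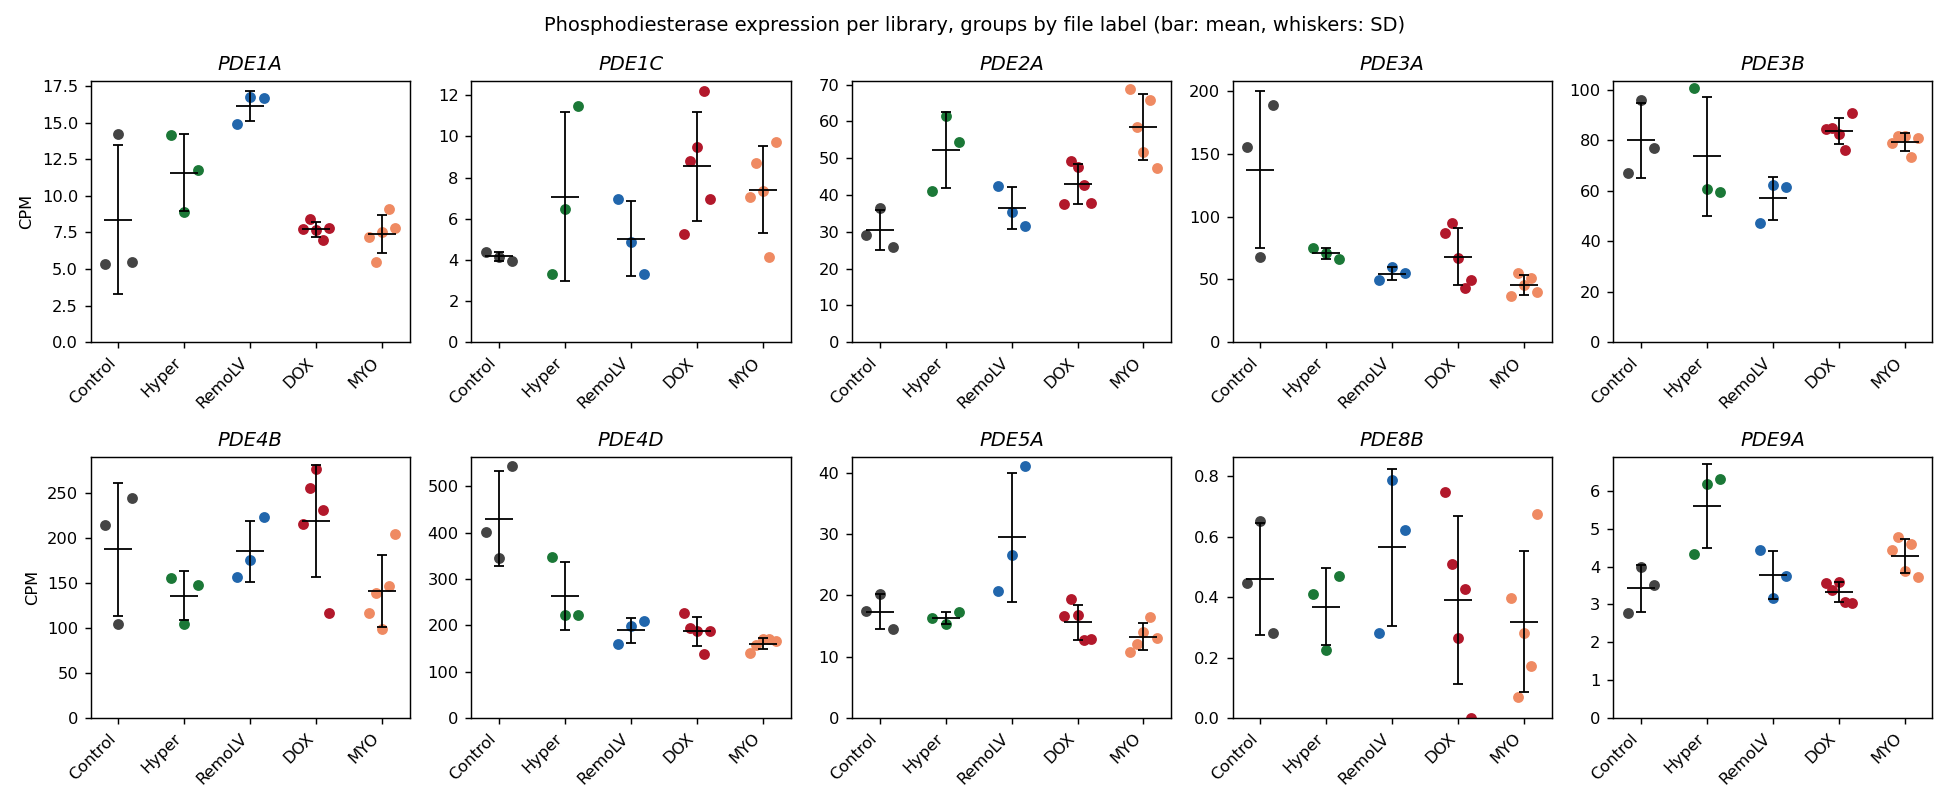
CPM of each of the 10 phosphodiesterase genes (vertical axis, linear, from 0) in the 19 libraries, grouped by file label. Points are libraries, horizontal bars group means and whiskers SD. PDE4D was highest in Control 3 and Control 1 (543 and 400 CPM), with Hyper 1 (348 CPM) next to Control 2 (346 CPM), PDE1A and PDE5A were highest in RemoLV, and PDE8B stayed below 0.8 CPM throughout.

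The first question was whether the drug models and the overload models differed from Control in these genes. Against Control, 4 of the 10 members had an adjusted p of at most 0.05 in DOX (edgeR quasi-likelihood test), where 42.1% of all genes tested did, 3 in MYO against 42.4% of all genes, and 5 in RemoLV against 47.2%. The members' share of calls was therefore near that of all genes in each of these comparisons, and none of the 10 reached the absolute log2 fold change of 2 that the study used to define a DEG, a limit passed by 2.75%, 2.47% and 6.35% of all genes. In DOX 2 members were higher and 2 lower (21% and 21.1% of all genes), in MYO 1 was higher and 2 lower (20.7% and 21.7%), and in RemoLV 2 were higher and 3 lower (23.1% and 24%). In Hyper no member and no other gene was called by edgeR (0%), with 4 members and 17.8% of all genes at an unadjusted p under 0.05. DESeq2 called 2 members in Hyper, where it called 2.6% of the genes to which it gave an adjusted p. Single Control libraries moved these counts. Without Control 2, edgeR called 5 members in Hyper (18.4% of all genes), and without Control 3 it called 1 in DOX (27.4%) and 3 in RemoLV (35.7%). Without Control 1 it called 2 in DOX (34.2%), and without Hyper 1 it called 3 in Hyper (5.6%). Over the members the median log2 fold change was -0.09 for DOX, -0.29 for MYO, 0.20 for RemoLV and -0.10 for Hyper, beside 0.03, 0.02, 0.02 and 0.01 over all genes tested. By table names, 3 members passed for DOX (29.6% of all genes), 3 for MYO (29.2%), 5 for RemoLV (47.2%) and 1 for Hyper (35.8%). These 4 comparisons share the same 3 Control libraries. In bulk tissue, fewer cells that express a gene and less RNA per cell cannot be told apart.

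**Figure D2:**
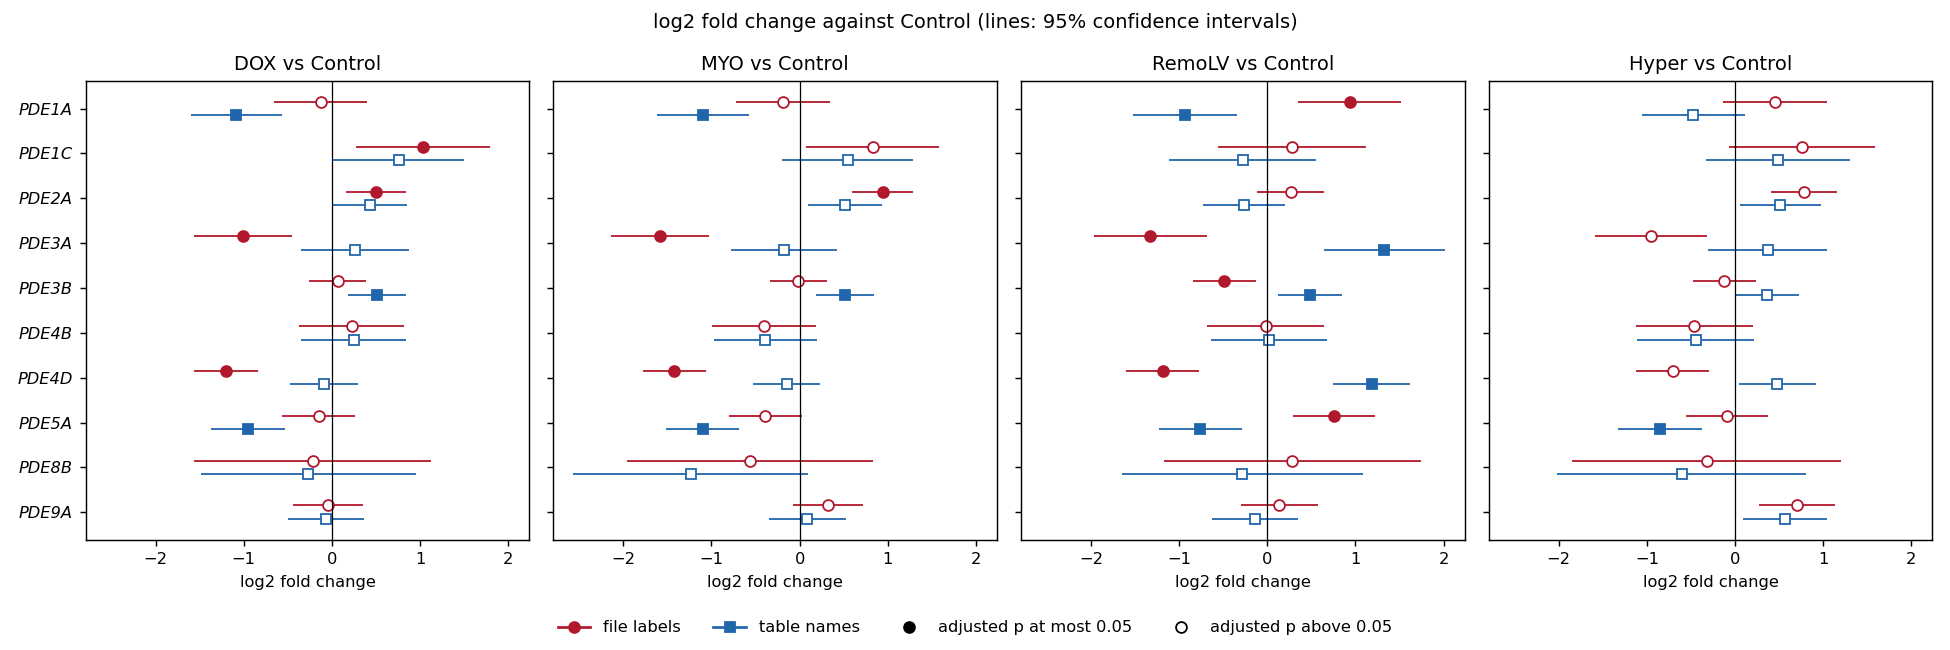
Log2 fold change of the 10 members against Control (horizontal axis) in 4 panels, by file labels (red circles) and by table names (blue squares). Lines are 95% confidence intervals, and filled symbols have an adjusted p of at most 0.05 in edgeR. The RemoLV panel is mirrored between the namings, and the PDE4D difference in DOX and MYO, -1.20 and -1.42 by file labels, was -0.09 and -0.15 by table names.

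PDE4D and PDE3A, cAMP phosphodiesterases of the cardiomyocyte, were lower than Control in DOX, MYO and RemoLV by file labels, and in MYO and RemoLV these were the largest differences among the members. PDE4D, a cAMP-specific enzyme found in complexes with beta-adrenergic receptors and with ryanodine receptors, lies on the minus strand at chr16:37897300-39406534 (Sscrofa11.1, RefSeq gene). Its CPM was 400, 346 and 543 in Control, 227, 194, 187, 138 and 188 in DOX, and 140, 158, 170, 170 and 166 in MYO. RemoLV had 159, 197 and 210 CPM, and Hyper 348, 222 and 221 CPM. Every DOX, MYO and RemoLV library was below every Control library, while 1 Hyper library reached the lowest Control value. The log2 fold change was -1.20 in DOX (SE 0.17, adjusted p = 4.56e-05 in edgeR), -1.42 in MYO (SE 0.17, adjusted p = 9.71e-06) and -1.19 in RemoLV (SE 0.20, adjusted p = 0.000116). These 3 calls stayed when any single library was left out, with the log2 fold change between -1.56 and -0.99. In Hyper it was -0.71 (95% confidence interval -1.12 to -0.29, adjusted p = 0.131), which DESeq2 called (-0.72, adjusted p = 0.0318). In edgeR it passed without Control 2 (-0.84, adjusted p = 0.00995) or without Hyper 1 (-0.96, adjusted p = 0.0205). The cardiomyocyte list of both chambers, found with 7 of 10 genes, had 4 genes called lower and 2 higher in DOX (median log2 fold change -0.49), and 5 lower and 1 higher in MYO (-0.48) and in RemoLV (-0.83), and its part in the PDE4D and PDE3A differences was not tested. By table names, where the same high libraries are RemoLV, PDE4D was 1.19 higher on the log2 scale in RemoLV than in Control (edgeR adjusted p = 0.000177) and did not pass in the other groups.

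PDE3A, a cAMP phosphodiesterase that cGMP inhibits and the target of milrinone, lies on the minus strand at chr5:52413503-52737771, where the RefSeq model is marked as partial. Control had 155, 67.8 and 189 CPM, so that Control 2 lay well below the other two. DOX had 86.9, 94.8, 66.7, 42.9 and 49.4 CPM, and MYO 36.5, 55.4, 45.4, 51.5 and 39.8 CPM. RemoLV had 49.2, 59.7 and 54.8 CPM, and Hyper 75.1, 71.0 and 65.9 CPM. All MYO and RemoLV libraries were below all Control libraries, whereas DOX and Hyper overlapped with Control 2. Scaled by library totals instead of TMM, RemoLV 2 (65.8 CPM) was level with Control 2 (65.4 CPM). The log2 fold change was -1.01 in DOX (SE 0.26, adjusted p = 0.0055 in edgeR), -1.58 in MYO (SE 0.26, adjusted p = 0.000172) and -1.33 in RemoLV (SE 0.31, adjusted p = 0.00172). In Hyper it was -0.96 (SE 0.30) and missed the threshold (edgeR adjusted p = 0.147). Without Control 2 the values were -1.34, -1.91, -1.66 and -1.29, and all 4 passed. Without Control 3 the DOX difference was -0.71 and no longer passed (edgeR adjusted p = 0.0681). By table names the difference was 0.26 in DOX, -0.18 in MYO and 0.37 in Hyper, none of which passed, and 1.33 in RemoLV (adjusted p = 0.00272).

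**Figure D3:**
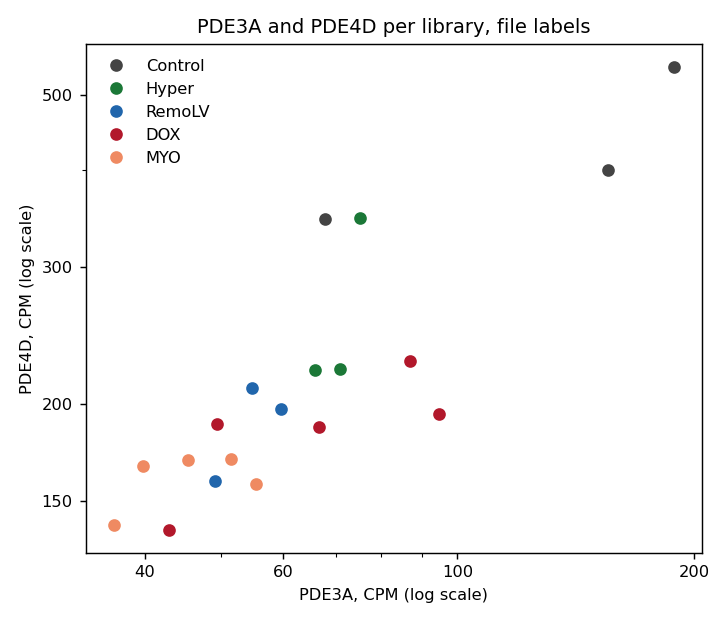
PDE4D against PDE3A in the 19 libraries, both in CPM on log axes, coloured by file label. Control 1 and Control 3 stand alone at the upper right, with 155 and 189 CPM of PDE3A and 400 and 543 CPM of PDE4D, and the MYO libraries lie at the lower left.

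Across the 19 libraries the log2 CPM of PDE3A and PDE4D had a Pearson r of 0.861, the highest of the 45 pairs of members. The points share pigs, groups and scaling, so that this is a description of these libraries. In the same way PDE4D was most like KIF5B (r = 0.968) and MTDH (r = 0.955), and PDE3A was most like KLF7 (r = 0.947) and HUWE1 (r = 0.922), among tested genes with a symbol that are not phosphodiesterases.

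The paralogues PDE3B and PDE4B passed in fewer comparisons with Control, PDE3B in 1 and PDE4B in 0. PDE3B, the cGMP-inhibited form known from insulin signalling in fat and also present in heart, ranged from 66.9 to 96.0 CPM in Control, 76.3 to 90.8 in DOX and 73.2 to 81.6 in MYO. It was at 47.2, 62.3 and 61.5 CPM in RemoLV, below all 3 Control libraries. Hyper spread from 59.4 to 101 CPM, across the whole Control range. Scaled by library totals instead of TMM, PDE3B in RemoLV (52.9 to 72.4 CPM) lay inside the range of Control (49.1 to 92.6 CPM). The log2 fold change in RemoLV was -0.49 (SE 0.17, edgeR adjusted p = 0.026), and it missed the threshold without RemoLV 1 (-0.37, adjusted p = 0.123) or without Control 2 (-0.34, adjusted p = 0.118). The PDE3B call was also lost with upper-quartile scaling (-0.37, edgeR adjusted p = 0.0806) and when only RemoLV and Control were fitted (-0.48, adjusted p = 0.0614). In DOX it was 0.07 (95% confidence interval -0.26 to 0.39) and in MYO -0.01 (-0.33 to 0.31). By table names PDE3B was instead higher than Control in DOX (0.51, edgeR adjusted p = 0.0202), MYO (0.52, adjusted p = 0.0191) and RemoLV (0.49, adjusted p = 0.0271).

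PDE4B, a cAMP-specific enzyme that acts in heart muscle and in leukocytes, had means of 188 ± 73.9 CPM in Control (SD, n = 3), 219 ± 62.1 in DOX (n = 5), 142 ± 40.1 in MYO (n = 5), 185 ± 34.2 in RemoLV (n = 3) and 136 ± 27.7 in Hyper (n = 3). The libraries of every group overlapped with those of Control, and Control 2, at 104 CPM, was again the lowest of the 3. No comparison with Control passed, with log2 fold changes between -0.46 in Hyper and 0.23 in DOX. Without Control 2 the MYO value was -0.70 and passed (edgeR adjusted p = 0.0437), and the DOX value turned to -0.07 and did not pass (adjusted p = 0.863). Nearest in pattern were IQGAP1 (r = 0.861) and BRPF3 (r = 0.803) for PDE4B, and UBP1 (r = 0.907) and OXCT1 (r = 0.859) for PDE3B.

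Within each library, the log2 ratio of PDE4B to PDE4D does not depend on library scaling. It was -1.26 ± 0.43 in Control (SD, n = 3) and -0.94 ± 0.31 in Hyper (n = 3), and 0.19 ± 0.58 in DOX (n = 5), -0.22 ± 0.38 in MYO (n = 5) and -0.03 ± 0.13 in RemoLV (n = 3). All RemoLV and MYO libraries were above all Control libraries, and so were all DOX libraries, of which DOX 5 was lowest at -0.69. The log2 ratio of PDE3A to PDE3B was 0.67 ± 1.01 in Control, where Control 2 stood at -0.50 and the other two above 1.2, and had means between -0.81 in MYO and -0.01 in Hyper elsewhere. By table names the values of Control and RemoLV are exchanged. Control then stood at -0.03 ± 0.13 for PDE4B to PDE4D, and the DOX and MYO libraries spread across its range. No test was made on these ratios.

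**Figure D4:**
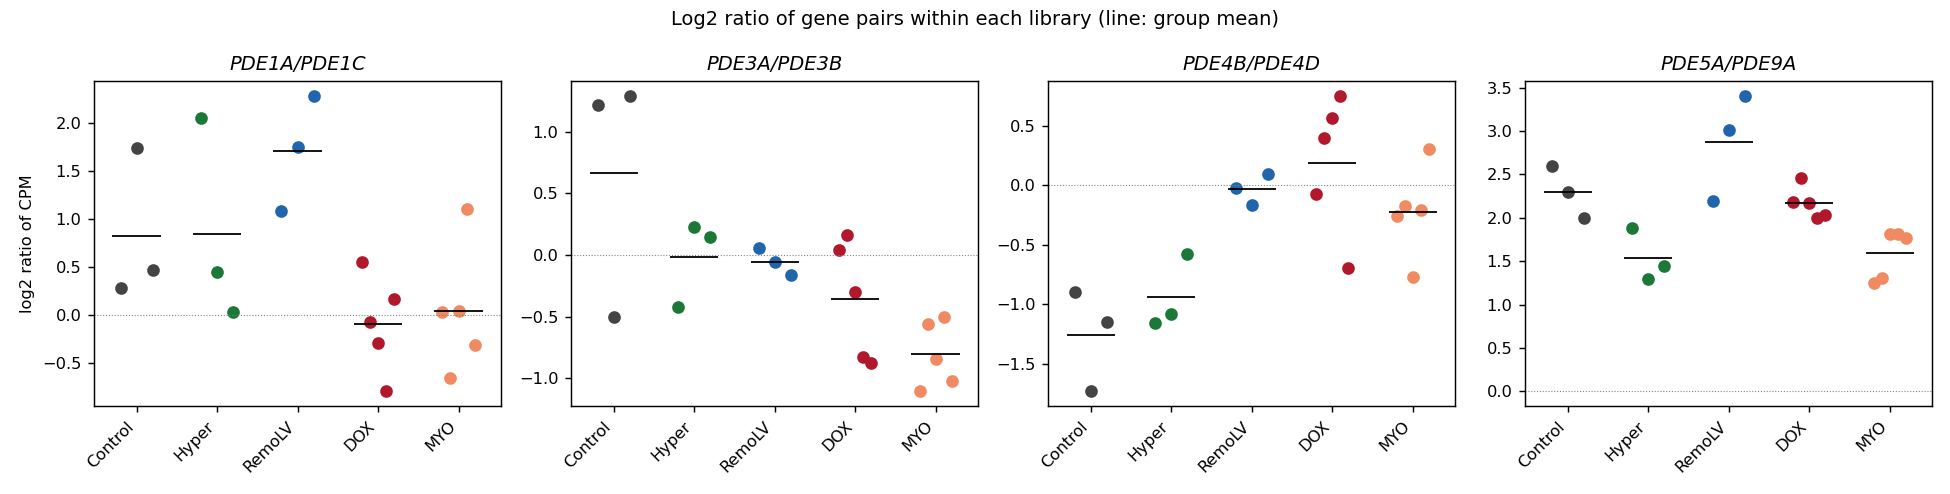
Log2 ratio of CPM between 2 phosphodiesterase genes within each library (vertical axis, a value of 0 marks equal CPM) in 4 panels, by file label. Points are libraries and lines group means. The PDE4B to PDE4D ratio lies below -0.5 in all Control and Hyper libraries and also in DOX 5 (-0.69) and MYO 3 (-0.77). The PDE1A to PDE1C ratio is highest on average in RemoLV, at 1.71.

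PDE2A, PDE1A and PDE1C degrade both cyclic nucleotides. PDE2A is stimulated by cGMP, through which a cGMP signal can lower cAMP, and lies on the minus strand at chr9:7136637-7227966. Its CPM was 29.0, 36.3 and 25.8 in Control, 37.6, 49.1, 47.7, 42.8 and 37.8 in DOX, and 68.8, 58.5, 51.7, 65.9 and 47.4 in MYO. Hyper had 41.0, 61.4 and 54.3 CPM, and RemoLV 42.6, 35.5 and 31.5 CPM. All DOX, MYO and Hyper libraries were above all Control libraries, and RemoLV overlapped with them. Against Control the log2 fold change was 0.50 in DOX (SE 0.16, edgeR adjusted p = 0.0196) and 0.94 in MYO (SE 0.16, adjusted p = 0.000252). The MYO call stayed when any single library was left out, while the DOX call was lost without Control 1 (0.47, adjusted p = 0.0677) or Control 3 (0.40, adjusted p = 0.114). In Hyper the log2 fold change was 0.78 (SE 0.18), which missed the threshold in edgeR (adjusted p = 0.102) and passed in DESeq2 (adjusted p = 0.00847). It also passed in edgeR without Control 2 (0.93, adjusted p = 0.0042) and without Hyper 1 (0.93, adjusted p = 0.0187). By table names PDE2A was higher than Control by 0.43, 0.52 and 0.52 in DOX, MYO and Hyper and passed in none (edgeR adjusted p = 0.116, 0.0605 and 0.0771). The genes nearest in pattern were TCF15 (r = 0.860) and ZBTB46 (r = 0.858).

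PDE1A and PDE1C are activated by calcium and calmodulin. PDE1A, known from smooth muscle, fibroblasts and cardiomyocytes, lies on the minus strand at chr15:87619049-87965068. It was at 14.9, 16.7 and 16.7 CPM in RemoLV and at 5.37, 14.3 and 5.50 CPM in Control. DOX had 7.74, 8.40, 7.67, 6.97 and 7.81 CPM, and MYO 7.21, 5.47, 7.55, 9.09 and 7.78 CPM, while Hyper had 14.2, 8.88 and 11.7 CPM. The 3 RemoLV libraries were the highest of all 19, and Control 2 was close to them. The log2 fold change in RemoLV was 0.93 (SE 0.28, edgeR adjusted p = 0.011), rose to 1.56 without Control 2 (adjusted p = 1.11e-05), and missed the threshold without Control 1 (0.70, adjusted p = 0.0635) or Control 3 (0.70, adjusted p = 0.0683). It also missed it when only RemoLV and Control were fitted (0.94, edgeR adjusted p = 0.0784). In DOX the sign rested on Control 2: the value was -0.13 (95% confidence interval -0.66 to 0.40) with it and 0.50 without it (edgeR adjusted p = 0.0399). The sign in MYO did too, with -0.19 and 0.44, neither of which passed (edgeR adjusted p = 0.579 and 0.0655). In Hyper PDE1A was 0.46 from Control (SE 0.28, edgeR adjusted p = 0.391) and 1.09 without Control 2, which passed (adjusted p = 0.00221). By table names PDE1A was lower than Control in DOX (-1.09, edgeR adjusted p = 0.00292), MYO (-1.10, adjusted p = 0.00272) and RemoLV (-0.93, adjusted p = 0.011). The genes nearest in pattern were MTMR8 (r = 0.924) and FBXL4 (r = 0.907).

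PDE1C, which in human heart is found in cardiomyocytes, was measured with few counts (37 to 200 per library). Control had 4.40, 4.16 and 3.95 CPM, and DOX 5.24, 8.82, 9.47, 12.2 and 6.97 CPM, with no overlap. MYO ranged from 4.16 to 9.73 CPM, RemoLV from 3.30 to 6.97 and Hyper from 3.30 to 11.5, all overlapping with Control. The log2 fold change in DOX was 1.04 (SE 0.36, edgeR adjusted p = 0.028), and the call was lost without DOX 4 or without any 1 of the 3 Control libraries (0.87 to 1.07, adjusted p between 0.0592 and 0.0904). In MYO it was 0.83 (SE 0.36, edgeR adjusted p = 0.0718), and it passed without MYO 4 (0.98, adjusted p = 0.0375) and when only MYO and Control were fitted (0.81, adjusted p = 0.0321). By table names neither passed (0.76 in DOX, edgeR adjusted p = 0.116). ST8SIA1 (r = 0.837) and RNF31 (r = 0.816) were nearest in pattern. The log2 ratio of PDE1A to PDE1C was 1.71 ± 0.60 in RemoLV (SD, n = 3), 0.83 ± 0.80 in Control (n = 3), 0.85 ± 1.07 in Hyper (n = 3), -0.09 ± 0.50 in DOX (n = 5) and 0.04 ± 0.66 in MYO (n = 5).

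PDE5A and PDE9A hydrolyse cGMP. PDE5A, the target of sildenafil, is abundant in smooth muscle and lies on the plus strand at chr8:104270858-104420955. It was at 20.8, 26.5 and 41.1 CPM in RemoLV and at 17.4, 20.2 and 14.5 CPM in Control. DOX had 16.6, 19.3, 16.7, 12.7 and 12.9 CPM, MYO 10.7, 12.1, 14.0, 16.5 and 13.0 CPM, and Hyper 16.3, 15.4 and 17.4 CPM. The RemoLV libraries were the 3 highest of the 19, with RemoLV 3 apart from the other two. The log2 fold change in RemoLV was 0.76 (SE 0.22, edgeR adjusted p = 0.00874). It was 0.44 without RemoLV 3 (adjusted p = 0.0905) and 0.64 without Control 3 (adjusted p = 0.0508). The other groups did not pass by file labels, with -0.15 in DOX, -0.39 in MYO and -0.09 in Hyper. By table names, PDE5A was lower than Control in all 4 groups, by -0.95 in DOX (edgeR adjusted p = 0.00151), -1.10 in MYO (adjusted p = 0.000458), -0.76 in RemoLV (adjusted p = 0.0104) and -0.85 in Hyper (adjusted p = 0.00718). SYT11 (r = 0.908) and ZWILCH (r = 0.890) were nearest in pattern.

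PDE1A and PDE5A were highest in the same 3 libraries, those labelled RemoLV, and had an r of 0.735 over the 19 libraries. These are the libraries with MYL2 near 58.0 CPM and with raised atrial and fibroblast marker lists, and the part of these markers in the PDE1A and PDE5A difference was not tested. The smooth muscle list was found with 7 of 7 genes. It summed to 5795 to 6189 CPM in RemoLV and to 3115 to 5923 CPM in the other 16 libraries. Gene by gene against Control, edgeR called only 1 of the 7 in RemoLV, as higher. The median log2 fold change of the list was 0.12. Its part in the PDE1A and PDE5A difference was not tested either. Because PDE1A and PDE5A moved together, the 250 bases before each RefSeq gene start (Sscrofa11.1) are shown. The windows lie at chr15:87965069-87965318 on the minus strand for PDE1A and at chr8:104270608-104270857 on the plus strand for PDE5A. RefSeq lists 14 transcripts of PDE1A and 6 of PDE5A. Starts other than the gene start were not read, and the start used in these libraries is not known. Capitals would mark 3 motifs, searched on both strands, of which neither window holds any. The first is the GC box, known as a binding site of Sp1 and spelled GGGCGG here. The second is the TATA motif, which positions the start of transcription at some promoters and was searched as TATAAA on either strand. The last is the short CRE, the core of the site bound by the cAMP-responsive CREB family, for which the letters TGACG were used.

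PDE1A: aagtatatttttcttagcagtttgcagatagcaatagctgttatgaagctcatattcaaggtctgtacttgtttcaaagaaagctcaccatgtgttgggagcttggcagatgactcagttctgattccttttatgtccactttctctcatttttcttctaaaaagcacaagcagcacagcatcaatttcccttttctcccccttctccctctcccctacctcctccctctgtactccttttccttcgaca

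PDE5A: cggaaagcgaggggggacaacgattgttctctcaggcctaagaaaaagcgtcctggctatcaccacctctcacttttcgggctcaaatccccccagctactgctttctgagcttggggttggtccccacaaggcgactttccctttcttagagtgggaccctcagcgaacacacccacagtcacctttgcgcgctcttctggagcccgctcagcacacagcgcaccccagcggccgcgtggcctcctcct

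The GC content was 42% in the PDE1A window and 59.6% in that of PDE5A, beside a median of 57.6% over 19534 such windows. A GC box stood in 45.9% of these windows, a TATA motif in 9.76%, a short CRE in 19.6% and the full CRE (TGACGTCA, which always contains the short one) in 1.7%.

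PDE9A, a high-affinity cGMP phosphodiesterase linked to natriuretic peptide signalling, lies on the plus strand at chr13:205938342-206034981 and was measured with 36 to 94 counts per library. Hyper had 4.33, 6.17 and 6.30 CPM, and Control 2.76, 3.98 and 3.53 CPM. DOX had 3.56, 3.39, 3.60, 3.06 and 3.03 CPM, MYO 4.44, 4.78, 3.88, 4.59 and 3.72 CPM, and RemoLV 4.43, 3.16 and 3.74 CPM. All 3 Hyper libraries were above all Control libraries, with a log2 fold change of 0.71 (SE 0.21) that missed the threshold in edgeR (adjusted p = 0.139). It passed without Control 2 (0.83, adjusted p = 0.0194) and without Hyper 1 (0.86, adjusted p = 0.031). The values in DOX (-0.04), MYO (0.32) and RemoLV (0.14) did not pass. ERG (r = 0.779), an endothelial transcription factor and one of the 8 endothelial markers listed here, and TMED9 (r = 0.776) were nearest in pattern. The 8 markers together were not raised in Hyper, with sums of 890 to 1015 CPM there and 898 to 1076 CPM in Control. The log2 ratio of PDE5A to PDE9A was 2.87 ± 0.62 in RemoLV (SD, n = 3) and 1.54 ± 0.30 in Hyper (n = 3), with 2.30 ± 0.30 in Control (n = 3), 2.17 ± 0.18 in DOX (n = 5) and 1.59 ± 0.29 in MYO (n = 5).

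PDE2A and PDE9A, the third most correlated pair of members (r = 0.647), are both lower in RemoLV than in Hyper, as given further on. Their windows, read in the same way, lie at chr9:7227967-7228216 on the minus strand and at chr13:205938092-205938341 on the plus strand. RefSeq lists 6 transcripts of each gene, and here too only the gene start was read. The PDE9A window holds 10 GC boxes, some of which overlap, and 1 short CRE in capitals, and that of PDE2A holds none of the motifs.

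PDE2A: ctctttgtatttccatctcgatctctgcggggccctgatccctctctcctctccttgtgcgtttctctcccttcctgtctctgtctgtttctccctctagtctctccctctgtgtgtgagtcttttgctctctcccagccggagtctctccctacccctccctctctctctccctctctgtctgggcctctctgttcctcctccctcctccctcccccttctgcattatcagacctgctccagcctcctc

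PDE9A: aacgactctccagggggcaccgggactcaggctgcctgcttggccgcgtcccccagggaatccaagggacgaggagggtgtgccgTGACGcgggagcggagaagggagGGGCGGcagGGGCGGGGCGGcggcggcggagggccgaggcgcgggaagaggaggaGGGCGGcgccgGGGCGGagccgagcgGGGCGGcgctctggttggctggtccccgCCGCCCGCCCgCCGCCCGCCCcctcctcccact

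Their GC content was 57.2% in PDE2A and 78.8% in PDE9A. A match of letters is a description of the window and no evidence of binding.

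PDE8B, a cAMP-specific enzyme with high affinity, was near the limit of detection. It had 0 to 14 counts per library and group means between 0.32 CPM in MYO and 0.57 CPM in RemoLV. The intervals of its fold changes were wide, such as -1.17 to 1.74 on the log2 scale for RemoLV against Control, and a difference was not detectable at this depth. LRRC49 (r = 0.781) and BLVRA (r = 0.762) were nearest in pattern.

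Levels can be compared between genes only per length. Per kilobase of the union of RefSeq exons, PDE4B (15.7 ± 6.19 CPM per kilobase) and PDE3B (14.6 ± 2.7) did not differ beyond their spread in Control (SD, n = 3), and PDE4D (9.29 ± 2.20) and PDE2A (6.22 ± 1.10) followed. Below them stood PDE5A (1.95 ± 0.32), then PDE1A (0.54 ± 0.33) and PDE9A (0.51 ± 0.09), which did not differ beyond their spread, and PDE1C (0.23 ± 0.01) and PDE8B (0.08 ± 0.03). In MYO the order of level per kilobase began with PDE3B (14.5 ± 0.65), PDE2A (12.0 ± 1.86) and PDE4B (11.9 ± 3.36), with PDE4D at 3.47 ± 0.27 (SD, n = 5). The order depends on the length used. Per kilobase of the longest transcript, Control had 23.6 CPM for PDE4B, 20.3 for PDE4D and 14.6 for PDE3B. By that length MYO had 17.8 for PDE4B, 14.5 for PDE3B and 13.6 for PDE2A. PDE3A was left out of this order because its RefSeq model is partial.

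The next question was whether the models differed from each other. Free and liposomal doxorubicin were compared at the same dose and time. No member and no other gene passed in DOX against MYO (0% in edgeR), and 4 members and 7.08% of all genes had an unadjusted p under 0.05, while DESeq2 called 0 members and 2 genes in all. Those 4 members were PDE2A (log2 fold change -0.44, 95% confidence interval -0.73 to -0.15), PDE3A (0.58, 0.08 to 1.07), PDE4B (0.63, 0.12 to 1.15) and PDE9A (-0.36, -0.70 to -0.02). All 5 DOX libraries lay below all 5 MYO libraries for PDE9A, and the other 3 genes overlapped. By table names, which exchange DOX 5 and MYO 1, no member passed either (0%), and of these 4 genes PDE4B alone had an unadjusted p under 0.05 (0.63, adjusted p = 0.56 in edgeR), beside 8.08% of all genes, and the PDE2A difference was -0.09.

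DOX and MYO together were compared with Hyper, a contrast of cardiotoxic with pressure-overload myocardium that both namings build from the same libraries. All 3 called members were lower in the drug groups, beside 32.6% of all genes called in either direction and 16.9% called lower (15.8% higher). PDE4D was at 138 to 227 CPM in the 10 drug libraries and at 348, 222 and 221 CPM in Hyper, with 9 of the 10 below all Hyper libraries and a log2 difference of -0.61 (SE 0.15, edgeR adjusted p = 0.00571). Without Hyper 1, its highest library, the value was -0.35 and did not pass (adjusted p = 0.129), whereas PDE3B then passed as higher (0.44, edgeR adjusted p = 0.0176). PDE9A was at 3.03 to 4.78 CPM against 4.33, 6.17 and 6.30 CPM, a difference of -0.57 (SE 0.16, edgeR adjusted p = 0.0117) that missed the threshold without Hyper 2 (adjusted p = 0.0724) or Hyper 3 (adjusted p = 0.0663). PDE1A was at 5.47 to 9.09 CPM against 14.2, 8.88 and 11.7 CPM, a difference of -0.62 (SE 0.22, edgeR adjusted p = 0.0388) that missed it without any 1 of 6 libraries, with -0.45 without Hyper 1 (adjusted p = 0.249). The PDE1A call was also lost with upper-quartile scaling (-0.59, edgeR adjusted p = 0.0564) and without the RemoLV libraries in the fit (-0.62, adjusted p = 0.0575). By table names the same 3 genes were called, with -0.62, -0.60 and -0.56 for PDE1A, PDE4D and PDE9A (edgeR adjusted p = 0.039, 0.00793 and 0.0222, beside 32.7% of all genes). With the replicate number as a block, 1 of the 3 stayed, PDE4D. The fibroblast list moved with this contrast, with 4 of 9 genes called higher and sums of at least 4816 CPM in the drug libraries against at most 4044 CPM in Hyper, and of the 7 macrophage and leukocyte genes 2 were called higher and 1 lower. The part of these markers in the member differences was not tested. Follow-up time, the origin of the libraries and the DDX3Y level differ between these groups in the same way and cannot be told apart from the treatment.

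RemoLV against Hyper contrasts the remote wall after infarction with pressure overload. Here 3 members passed, beside 35.6% of all genes, 1 of them higher (17% of all genes) and 2 lower (18.6%), and all 3 calls depended on the naming while the 3 directions did not. None of the members was a DEG here or in DOX and MYO against Hyper (4.93% and 1.75% of all genes). PDE5A was higher in RemoLV (0.85, SE 0.22, edgeR adjusted p = 0.00596), with all 3 libraries above all Hyper libraries. PDE2A (-0.52, SE 0.18, adjusted p = 0.0302) and PDE9A (-0.57, SE 0.21, adjusted p = 0.0387) were lower, each with 1 RemoLV library inside the Hyper range. Leaving out RemoLV 3 ended all 3 calls, with 0.53 for PDE5A (edgeR adjusted p = 0.0589), -0.42 for PDE2A (adjusted p = 0.121) and -0.57 for PDE9A (adjusted p = 0.0854). The PDE2A and PDE9A calls were each also lost without RemoLV 2, Hyper 2 or Hyper 3 and when only these groups were fitted (edgeR adjusted p = 0.051 and 0.111), and that of PDE9A without a filter on low counts (adjusted p = 0.0613). PDE3B and PDE4D passed as lower in RemoLV without Hyper 2 (-0.49 and -0.60) or Hyper 3 (-0.51 and -0.60), and PDE3A did when only these groups were fitted (-0.37, edgeR adjusted p = 0.0491). By table names no gene passed in this comparison (0% in edgeR, with 4 members and 18.2% of all genes at an unadjusted p under 0.05), and PDE5A stood at 0.09, while PDE2A (-0.78, edgeR adjusted p = 0.131) and PDE9A (-0.71, adjusted p = 0.155) kept their direction at a larger size. The RemoLV libraries are those with MYL2 at 18.6 to 115 CPM. The endothelial list summed to 778 to 852 CPM in RemoLV and to 890 to 1015 CPM in Hyper, with 2 of 8 genes called lower and 0 higher. In the fibroblast list 7 of 9 genes were called higher and 0 lower. The part of MYL2 and of these lists in the differences of the members was not tested.

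**Figure D5:**
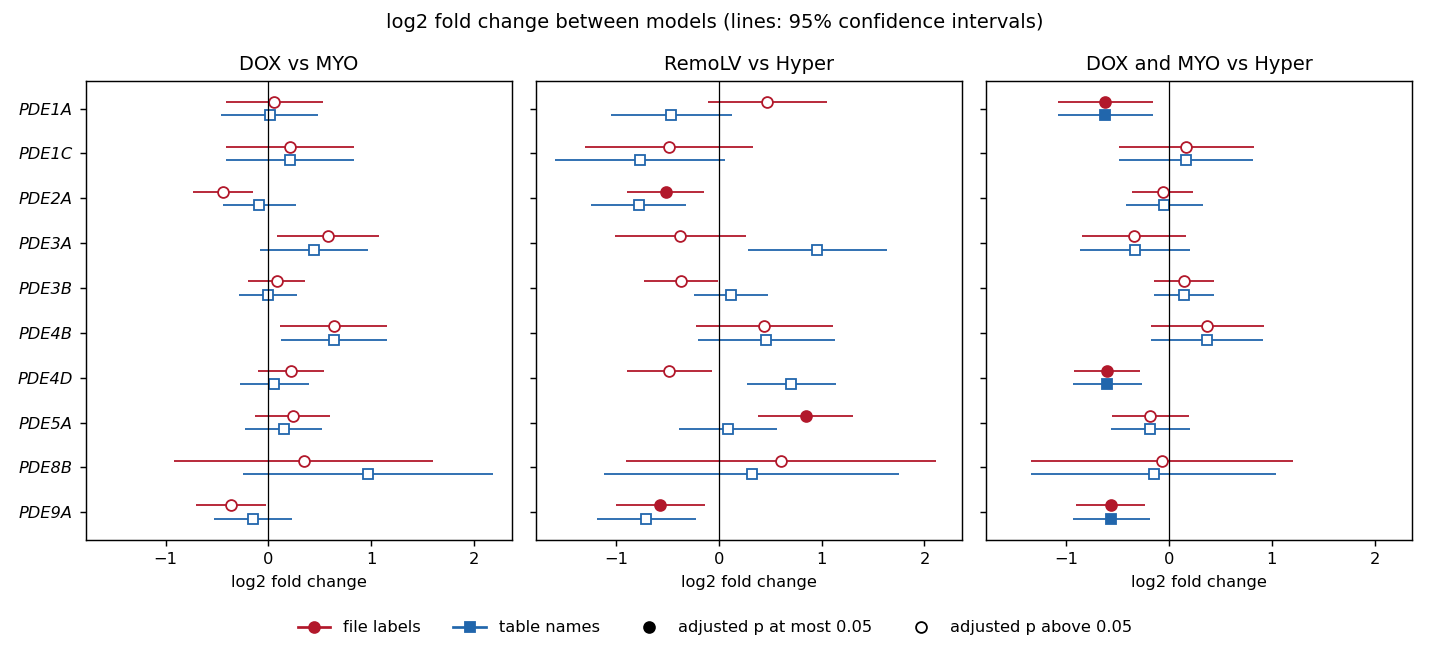
Log2 fold change of the 10 members between models (horizontal axis), by file labels (red circles) and table names (blue squares), with 95% confidence intervals and filled symbols for an adjusted p of at most 0.05 in edgeR. In DOX and MYO against Hyper the namings nearly coincide, with PDE1A, PDE4D and PDE9A lower, and in RemoLV against Hyper no symbol is filled by table names.

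The other genes of the pathway were described from hand-written lists. Of 14 further phosphodiesterase genes, 9 were tested. In DOX and in MYO 3 of them were higher and 1 lower than Control, in RemoLV 1 was higher and 4 lower, and in Hyper none was called (3 at an unadjusted p under 0.05 in edgeR, as had 17.8% of all genes), beside 42.1%, 42.4%, 47.2% and 0% of all genes called in either direction. By table names 4 were higher and 0 lower in DOX, 3 and 0 in MYO, and 4 and 1 in both RemoLV and Hyper, beside 29.6%, 29.2%, 47.2% and 35.8% of all genes. PDE8A, the closest paralogue of PDE8B, was at 59.1 ± 3.66 CPM in Control (SD, n = 3) and at 15.8 ± 1.19 in RemoLV (n = 3), a log2 fold change of -1.90. It was also lower in DOX (-0.78) and MYO (-0.83), and by table names the signs turned, with 1.12 in DOX, 1.09 in MYO and 1.90 in RemoLV. Against Hyper, which does not depend on the naming, the log2 difference in the drug groups was -0.48 (edgeR adjusted p = 0.000673).

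All 4 pathway lists without the members (other phosphodiesterases, cyclases, cyclic nucleotide effectors, and anchors, inhibitors and exporters) held 70 genes, of which 61 were tested. In DOX 18 were higher and 18 lower than Control (42.1% of all genes called), in MYO 17 and 18 (42.4%), in RemoLV 16 and 22 (47.2%), and in Hyper none by edgeR (0%), where 13 had an unadjusted p under 0.05 (17.8% of all genes), while DOX and MYO against Hyper had 11 higher and 15 lower (32.6% of all genes). By table names 14 were higher and 14 lower in DOX, 10 and 15 in MYO, 21 and 16 in RemoLV, and 15 and 15 in Hyper, beside 29.6%, 29.2%, 47.2% and 35.8% of all genes. The median log2 fold changes were -0.18 in DOX, -0.09 in MYO and -0.15 in RemoLV. GNAS, the stimulatory G protein that couples receptors to adenylyl cyclase, was at 7.63 ± 1.92 CPM in Control (SD, n = 3), 7.63 ± 1.13 in Hyper (n = 3), 40.2 ± 3.94 in DOX (n = 5), 46.7 ± 8.98 in MYO (n = 5) and 64.6 ± 8.29 in RemoLV (n = 3). The log2 differences were 2.39, 2.61 and 3.07 from Control and 2.50 between DOX and MYO together and Hyper, but the locus has overlapping transcripts, which makes the count uncertain. By table names the differences from Control turned to -0.66, -0.49 and -3.07, and that from Hyper was 2.51. AKAP9, an anchor that holds protein kinase A and PDE4D3 at a potassium channel, had means of 118 CPM in Control (110 to 131) and 125 CPM in Hyper (102 to 150) and means of 49.5 to 58.0 CPM in the other 3 groups. Against Hyper it was lower in DOX and MYO by -1.21 on the log2 scale under both namings. AKAP1, the mitochondrial anchor of protein kinase A, was higher in DOX (1.07) and MYO (1.25) than in Control and stayed higher by table names (1.18 and 1.33). ADCY6, a main cardiac adenylyl cyclase, was higher in DOX by 1.11, and PRKAR2A, a regulatory subunit of protein kinase A, was lower in MYO by -1.11, and neither passed by table names (edgeR adjusted p = 0.116 and 0.75). ABCC5, a cyclic nucleotide exporter, was higher in RemoLV than in Control (1.46) and than in Hyper (1.27), which by table names turned to -1.46 and -0.20, the latter not passing. ADCY7, another cyclase, was higher in DOX and MYO than in Hyper by 1.02 under both namings.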

How the data were processed

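RNA-seq was measured in 19 libraries, 1 per pig, from poly(A) RNA with a directional kit. The authors used STAR to align reads (genome build Sscrofa11.1) and HTSeq 0.11.1 for strand-aware counting on Ensembl gene models. The deposited count files hold raw counts for 25879 genes. The authors' table of 14744 genes holds normalised log2 values of the same libraries, used here for symbols and for matching names, and fold changes and adjusted p-values of their comparisons, which were not used.

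Genes with low counts were removed with filterByExpr of edgeR 4.0.16 (R 4.3.3), and 1 model of 5 groups was fitted with TMM scaling and the quasi-likelihood test. P-values were adjusted by Benjamini-Hochberg over 13552 genes, and an adjusted p of at most 0.05 was called. Tests are two-sided, and p-values measure the spread between pigs. DESeq2 1.42.0, other scalings, filters, sample sets, a replicate block, table names and leaving out each library were tried. Simulated counts, in which 200 genes were changed, served to test the fit. Partner genes were the 2 with the highest Pearson r of log2 CPM (prior count 2), and pathway genes were named where called with a log2 fold change of 1 or more in size, at most the 4 of smallest adjusted p per comparison. The members and lists were chosen with earlier results of these data known.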

Additional observations from a re-analysis of the deposited data

Results flagged for a closer look

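Differences between models, tested directly, were singled out for 6 results. In RemoLV against Hyper by file labels the log2 differences were -0.52 for PDE2A, 0.85 for PDE5A and -0.57 for PDE9A. In DOX and MYO against Hyper they were -0.62 for PDE1A, -0.61 for PDE4D and -0.57 for PDE9A. In none of the 20 groups of 5 libraries examined, DOX and MYO for each of the 10 members, did a single library stand far enough from the others to be singled out, where chance alone does so in about 1 in 20 groups. The 3 groups of 3 were too small for this, Control with its divergent Control 2 included.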

How the results depend on the processing

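Naming was the choice with the largest effect. Of the 70 log2 fold changes, 21 turned in sign by table names, and 10 lost and 7 gained a call, turned values included. The turned values were, in RemoLV against Control, PDE1A -0.93, PDE1C -0.28, PDE2A -0.26, PDE3A 1.33, PDE3B 0.49, PDE4B 0.0193, PDE4D 1.19, PDE5A -0.76, PDE8B -0.28 and PDE9A -0.14. In RemoLV against Hyper they were PDE1A -0.46, PDE3A 0.96, PDE3B 0.12 and PDE4D 0.71, in Hyper against Control PDE1A -0.47, PDE3A 0.37, PDE3B 0.37 and PDE4D 0.48, and otherwise PDE3A in DOX 0.26, PDE3B in MYO 0.52 and PDE3B in DOX against MYO -0.0061. The count of members called became 1 in Hyper against Control and 0 in RemoLV against Hyper.

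DESeq2 called 2 members in Hyper against Control (2.6% of all genes with an adjusted p), upper-quartile scaling 1 in RemoLV against Hyper (35.3%), and a fit of only the groups compared 3 in RemoLV against Control (39.1%). Upper-quartile scaling moved the median of all genes to 0.14 in RemoLV against Control, with 3800 genes higher and 2641 lower (3136 and 3257 with TMM), and turned PDE9A in DOX to 0.0089, PDE3B in MYO to 0.0469 and PDE4B in RemoLV to 0.12. A minimum of 10 counts in every library turned PDE4B in RemoLV to 0.0327 and removed PDE8B.

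Replicate numbers mark different pigs. Deviations of libraries with the same number by file label correlated between -0.246 and 0.242 (32 pairs), those of other pairs between -0.218 and 0.278. The authors' table numbers some libraries otherwise, with Hyper 1 and Hyper 3 exchanged. A pairing by its numbers was not checked. With the replicate block, 1 member was called in DOX and MYO against Hyper (26.6% of all genes), PDE1C in DOX (0.98, adjusted p = 0.0832 in edgeR) and PDE9A in RemoLV against Hyper (-0.56, adjusted p = 0.0729) were no longer called, and PDE9A in DOX (0.0171), PDE3B in MYO (0.004) and PDE4B in RemoLV (0.0092) turned. The block moved the genes called in DOX from 5704 to 4793.

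Leaving out 1 library at a time gave 1 (without Control 3, 27.4% of all genes called) to 4 members called in DOX, 3 to 4 in MYO, 3 (without Control 3, 35.7%) to 5 in RemoLV and 0 to 5 (without Control 2, 18.4%) in Hyper against Control, 0 (without RemoLV 3, 28.2%) to 3 in RemoLV against Hyper and 1 (without Hyper 3, 32.3%) to 3 in DOX and MYO against Hyper. The values that turned ranged, in DOX, from -0.36 to 0.50 for PDE1A, -0.0482 to 0.22 for PDE3B, -0.0668 to 0.46 for PDE4B, -0.61 to 0.13 for PDE8B and -0.18 to 0.0784 for PDE9A, and in MYO from -0.42 to 0.44 for PDE1A and -0.13 to 0.14 for PDE3B. In RemoLV they ranged from -0.0208 to 0.495 for PDE1C, -0.32 to 0.21 for PDE4B and -0.0766 to 0.63 for PDE8B, and in Hyper from -0.42 to 0.0312 for PDE3B, -0.20 to 0.0356 for PDE5A and -0.57 to 0.03 for PDE8B. Between models they ranged from -0.0353 to 0.14 for PDE1A and -0.0389 to 0.78 for PDE8B in DOX against MYO, from -0.83 to 0.0514 for PDE1C in RemoLV against Hyper, and from -0.17 to 0.71 for PDE1C, -0.21 to 0.0719 for PDE2A and -0.31 to 0.14 for PDE8B in DOX and MYO against Hyper. The cause of these changes was not tested. Depth limited PDE8B, and 12 of 50 group means moved by more than 1 SD when scaled by library totals. Among them were the Control means of PDE1C, PDE2A, PDE3B, PDE5A and PDE9A. The TMM factors differed by group, with 0.696 to 0.965 in Control, 0.834 to 0.954 in Hyper and 0.972 to 1.18 in DOX, MYO and RemoLV.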
